A study of Mus musculus domesticus with 6 samples.

Results

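The integrated stress response and the unfolded protein response were followed through 38 genes, chosen by symbol, of the 55359 entries in each deposited table. They were split by role into 6 genes of the eIF2 arm, 20 genes of the ATF4 arm (ATF4, its partner factors and their targets) and 12 genes of the endoplasmic reticulum (ER) arm. All 38 symbols matched an entry in the tables. Ddit3 matched a pair of entries, and the one without any counts was not used. Total RNA had been sequenced from burst-forming unit-erythroid cells (BFU-E, the earliest progenitors committed to red cells) sorted from mouse fetal liver at E14.5. There were 3 libraries labelled Exosc3 fl/fl Cre- and 3 labelled Exosc3 fl/fl Cre+. All carried homozygous floxed Exosc3, a subunit of the RNA exosome, so the groups differed in the Vav1-Cre transgene, whose promoter is active throughout blood cells and not in BFU-E alone. The samples came from 3 litters with 2 samples each. The labels describe sorting of GFP-positive, lineage-negative, Kit-positive cells low for CD24 and CD71, for all 6 samples, and do not say what carries the GFP.

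Both responses adjust protein production when a cell is stressed. In the integrated stress response, kinases phosphorylate the translation factor eIF2, which slows protein synthesis in general while the factor ATF4 is made and switches on genes for amino acid supply. One of the kinases, HRI (Eif2ak1), senses heme and is known for matching globin synthesis to heme supply in red cell precursors. In the unfolded protein response, the sensors PERK (Eif2ak3), ATF6 and IRE1 (Ern1) detect misfolded protein in the ER and raise chaperones and degradation factors. PERK belongs to both responses, since it phosphorylates eIF2.

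Libraries held between 89629949 and 124931215 expected counts. Genes seen in 1 library only had a median of 108 reads there, so reads are not independent molecules, and the floors given here cover read counting only. Exosc3 itself stood at 51.9, 44.3 and 48.0 CPM (reads counted per gene after scaling libraries to one size) in Cre- replicates 1, 2 and 3, but at 26.8, 22.1 and 30.2 CPM in the Cre+ replicates, so the groups did not overlap (log2 fold change -0.87, SE 0.22, adjusted p = 0.259, edgeR). Erythroid progenitor markers were present in every library, with a summed level of 1768 to 2150 CPM over 15 genes in Cre- libraries and 2084 to 2818 CPM in Cre+ libraries. Among them Car2, a carbonic anhydrase, was called higher in Cre+ (log2 fold change 1.09, adjusted p = 0.00787, edgeR), Sptb was higher in every Cre+ library (1.02, not called) and Kit, used in the sort, was lower in every one (-0.19, not called). The summed level of 14 neutrophil and monocyte markers was 588 to 1553 CPM in Cre- and 239 to 545 CPM in Cre+ libraries. Mpo alone made up most of that sum, at 512 to 1365 and 209 to 481 CPM, and 5 of the 14 were lower in every Cre+ library. The summed level of 11 lymphoid markers was 87.9 to 231 and 10.3 to 34.3 CPM, again with 5 lower in every Cre+ library. Of all tested genes, 7.66% were lower and 7.53% higher in this way. Megakaryocyte markers (79.3 to 147 and 73.0 to 136 CPM) and endothelial and stromal markers (29.4 to 61.6 and 11.7 to 33.6 CPM) overlapped, and no library exceeded 9.46 CPM for mast cell, hepatocyte or macrophage markers. Of the neutrophil and lymphoid lists, Ly6c2, S100a8, S100a9, Dntt and Cd3e had 0 counts in all 6 libraries. Others of these lists had counts in every Cre- library. Among them were Csf1r (15.8 to 31.5 CPM in Cre- and 0 to 2.95 CPM in Cre+ libraries) and Ighm (17.2 to 51.5 and 0 to 2.42 CPM). In sorted bulk RNA, fewer cells of a type and less RNA per cell cannot be told apart, and the part of these cells in the results on stress genes was not tested.

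No member was called between Cre+ and Cre- BFU-E. Of the 38, 33 had counts in enough libraries to be tested. Of these, 0 were higher and 0 lower at an adjusted p under 0.05 (edgeR). Of all 13117 tested genes, 0.122% were called in either direction, all of them higher. The smallest adjusted p among the members was 0.313, for Psat1. At an unadjusted p under 0.05, 2 members were higher (Ppp1r15a and Asns), or 6.06% beside 4.05% of all tested genes. By the same measure 6 were lower (Psat1, Mthfd2, Atf4, Hspa5, Calr and Sel1l), or 18.2% beside 4.19% of all tested genes. Of the 33, 11 had a positive and 22 a negative log2 fold change, where 49.2% and 50.8% of all tested genes did. The median was -0.14 over the 33 members and -0.01 over all tested genes. By DESeq2, 2 of the members were called, Psat1 lower and Ppp1r15a higher, where it called 2.19% of the genes it gave an adjusted p as lower and 2.28% as higher.

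For many members the main fit, which leaves out the deposited transcript lengths, bound the difference closely. The 95% interval of the fold difference, which comes from the same fit, lay within 2-fold in both directions for 23 of 33 tested members and within 1.5-fold for 15. Among the well-bounded genes were Hsp90b1, Calr, Pdia4, Eif2s1 and Ppp1r15b. With counts corrected for the deposited transcript lengths, the log2 fold changes of Eif2ak3 (0.82) and Slc3a2 (-1.01) fell outside their intervals. The deposited lengths of 9 tested members varied more than 1.5-fold over the libraries. Without the correction, the interval reached past 2-fold for 10, which were Ppp1r15a, Atf5, Ddit3, Cebpb, Psph, Pycr1, Ern1, Xbp1, Dnajb9 and Herpud1. A missed threshold does not show that the groups were alike, in those 10 or in the others. The intervals of Psat1, Mthfd2, Asns, Atf4, Hspa5, Calr and Sel1l lay within 2-fold but left out equal levels. Exosc3, the floxed gene, missed the threshold as well (log2 fold change -0.87, adjusted p = 0.259, edgeR).

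**Figure D1:**
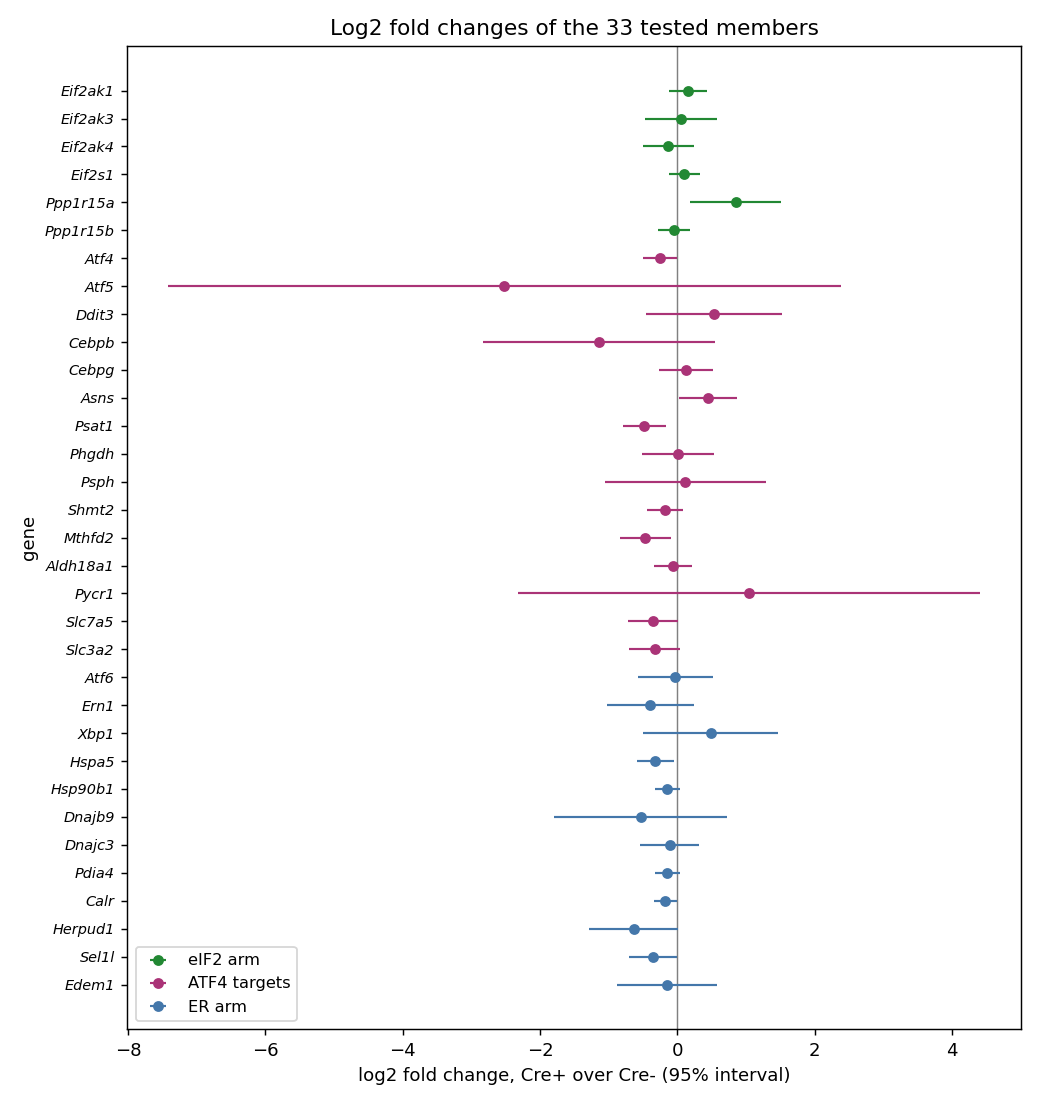
Log2 fold change of each tested member (x axis, Cre+ over Cre-, point) with its 95% interval (bar), one gene a line, coloured by arm. Most points sit near 0, Ppp1r15a lies at 0.86 and Psat1 at -0.48, and the widest bars belong to Atf5 and Pycr1, which have few counts.

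The resting level of the pathway was read from TPM, which is scaled for transcript length and so allows genes to be compared, as far as the deposited lengths hold. In Cre- libraries the ER chaperones led. Calr, the calcium-binding chaperone calreticulin, had 1608 ± 136 TPM (SD, n = 3) and was the 98th most abundant of the tested genes. Hsp90b1, the ER form of HSP90, followed at 463 ± 38.7 TPM, and Phgdh, the first enzyme of serine synthesis, at 402 ± 79.8 TPM. The place of Phgdh depends on its deposited length, which ran from 699 to 1177 bases over the libraries. Its Cre- libraries had 447, 310 and 448 TPM but a steady 198, 206 and 196 CPM. Atf4 came next at 292 ± 19.0 TPM, above every enzyme and transporter of the ATF4 arm except Phgdh. Neighbours in the order mostly could not be told apart: the library ranges overlapped for 34 of 37 neighbouring pairs, and parted only between Calr and Hsp90b1, between Atf4 and Shmt2, and between Eif2s1 and Aldh18a1.

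The lower end of the order held genes known as strong responders to stress. Atf3, a stress-induced factor, and Chac1, a glutathione-degrading enzyme, had 0 counts in all 6 libraries, which allows up to 0.0339 CPM in the shallowest library by a floor of 3 reads, while 1 captured molecule of 108 reads there would be 1.22 CPM. Trib3, a pseudokinase that restrains ATF4, had 389 reads in Cre- replicate 3 and none elsewhere. Slc7a11, the cystine importer, had 0, 70 and 341 reads in Cre- replicates 1, 2 and 3 against 0 in each Cre+ library. Vldlr, a lipoprotein receptor, had 53 reads in Cre- replicate 1, 53 in Cre+ replicate 3 and none elsewhere. These 5 had counts in too few libraries to be tested, and none of them had more than 53 reads in any Cre+ library.

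**Figure D2:**
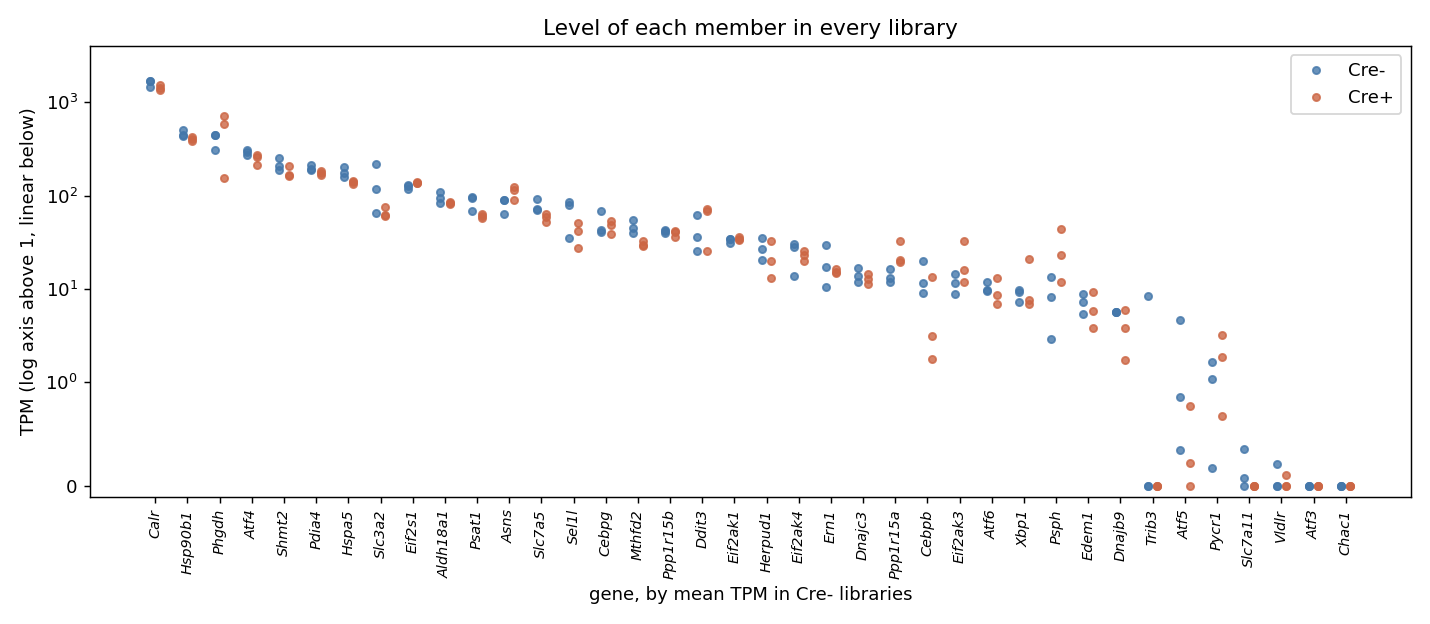
TPM of all 38 members in every library (y axis, logarithmic above 1 and linear below), ordered by the mean of the Cre- libraries, with one point per library. Calr stands highest, the groups overlap for most genes, and Slc7a11, Vldlr, Atf3 and Chac1 lie at or near 0. Trib3 lies at 0 except in Cre- replicate 3, at 8.49 TPM.

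In the eIF2 arm, no kinase and no substrate gene was called. HRI, encoded by Eif2ak1, had 118, 98.1 and 114 CPM in Cre- replicates 1, 2 and 3 against 120, 128 and 120 CPM in the Cre+ replicates. All 3 Cre+ libraries lay just above the Cre- libraries, but the fold difference was 1.12 with an interval of 0.920 to 1.35 (adjusted p = 0.899, edgeR). Per length it was the most abundant of the 3 member kinases, at 33.5 ± 1.99 TPM in Cre- libraries, all of them above those of the others. GCN2 (Eif2ak4), which senses uncharged tRNA, was at 24.0 ± 8.85 TPM and overlapped PERK (Eif2ak3), at 11.6 ± 2.71 TPM, through its lowest library.

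Eif2ak4 had 73.0, 60.3 and 68.3 CPM in the Cre- replicates and 58.3, 57.7 and 68.5 CPM in the Cre+ replicates. Its groups overlapped (1.09-fold lower in the mean, interval 0.847 to 1.41). Eif2ak3 overlapped as well, at 42.8 ± 9.18 against 44.3 ± 7.43 CPM, and its log2 fold change of 0.05 became 0.82 when counts were corrected for the deposited transcript lengths. Eif2s1, the eIF2 subunit that is phosphorylated, had 352, 345 and 309 CPM in Cre- and 389, 368 and 323 CPM in Cre+ libraries. These ranges overlapped, with an interval of 0.918 to 1.26 for the fold difference.

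Neither phosphatase regulator was called. Ppp1r15a encodes GADD34, the inducible regulatory subunit of the phosphatase that removes the phosphate from eIF2. It had 30.9, 24.5 and 18.6 CPM in Cre- replicates 1, 2 and 3 against 36.0, 60.4 and 37.5 CPM in the Cre+ replicates. Every Cre+ library exceeded every Cre- library, and Cre+ replicate 2 was the highest. The means of 24.7 ± 6.17 and 44.6 ± 13.7 CPM (SD, n = 3 each) gave a 1.81-fold difference with an interval of 1.14 to 2.86. The difference was not called (adjusted p = 0.433, edgeR; alternatives gave 0.0449 by DESeq2 and up to 0.711 otherwise), and the log2 fold change ran from 0.57 to 1.05. Ppp1r15b, the constitutive counterpart, was at 193 ± 7.27 and 187 ± 14.4 CPM with overlapping groups and an interval of 0.822 to 1.14. In the eIF2 arm as a whole, 4 of 6 genes had a positive log2 fold change, with a median of 0.08, which was -0.02 without Cre+ replicate 1.

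ATF4 and its partner factors gave no shared direction. Atf4 transcript stood at 249, 254 and 234 CPM in the Cre- replicates and at 220, 218 and 180 CPM in the Cre+ replicates. The Cre+ libraries were all below the Cre- libraries, by 1.19-fold in the mean, with an interval of 1.01 to 1.41 (adjusted p = 0.579, edgeR, with 0.141 to 0.905 in other settings). ATF4 is controlled mainly at translation, so its transcript does not measure the protein. Ddit3, which encodes the stress factor CHOP, had 10.6, 15.5 and 22.2 CPM in Cre- libraries and 21.8, 12.6 and 35.8 CPM in Cre+ libraries. These ranges overlapped, and the 1.45-fold higher mean had an interval of 0.730 to 2.89 (adjusted p = 0.912). Its log2 fold change of 0.54 ran from 0.10 to 0.84 over the alternatives.

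Among the other factors, Cebpg, a partner of ATF4, overlapped at 60.9 ± 9.03 and 66.8 ± 6.43 CPM. Cebpb, a factor also used by myeloid cells, had 12.0, 20.9 and 9.25 CPM in Cre- and 3.36, 14.0 and 1.86 CPM in Cre+ libraries. Its groups overlapped, the adjusted p was 0.849, and its level was highest in replicate 2 of each group. The 14 neutrophil and monocyte markers summed to 976, 588 and 1553 CPM in Cre- and 268, 239 and 545 CPM in Cre+ libraries. Replicate 2 was the lowest of each group for this sum. Mpo alone made up most of it, at 859, 512 and 1365 CPM in Cre- and 226, 209 and 481 CPM in Cre+ libraries. The part of myeloid cells in the Cebpb values was not tested. Atf5, a factor of mitochondrial stress, was near the limit of capture, at 1.08, 5.77 and 0.451 CPM against 0.990, 0.283 and 0 CPM.

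Enzymes of serine and one-carbon metabolism are among the known targets of ATF4. Psat1, the aminotransferase of serine synthesis, had 184, 176 and 134 CPM in Cre- replicates 1, 2 and 3 against 120, 123 and 112 CPM in the Cre+ replicates. All Cre+ libraries were below all Cre- libraries. The means of 164 ± 27.0 and 118 ± 5.92 CPM differed 1.39-fold, with an interval of 1.12 to 1.73 (adjusted p = 0.313, edgeR, in a range of 0.0143 by DESeq2 to 0.612). Mthfd2, a mitochondrial folate enzyme, was parted in the same way, at 62.1, 72.2 and 63.7 against 46.7, 50.6 and 46.03 CPM. Its mean was 1.38-fold lower in Cre+ libraries, with an interval of 1.07 to 1.78 (adjusted p = 0.452). Neither was called by edgeR, under any of the alternatives.

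Asns, the asparagine synthetase and a classical ATF4 target, lay the other way. It had 133, 134 and 85.5 CPM in the Cre- replicates and 166, 181 and 134 CPM in the Cre+ replicates. The groups parted by a margin of less than 1 CPM, between Cre- replicate 2 and Cre+ replicate 3. The 1.37-fold higher mean had an interval of 1.02 to 1.83 (adjusted p = 0.572). The exact two-sided permutation test over the libraries gave 0.1 for Psat1, Mthfd2, Asns, Atf4 and Ppp1r15a alike, which is the smallest value that 3 against 3 libraries can give.

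The remaining synthesis enzymes overlapped between groups. Shmt2, the mitochondrial serine hydroxymethyltransferase, was at 335 ± 44.1 and 297 ± 29.3 CPM, and Aldh18a1, which starts proline synthesis, at 229 ± 34.4 and 220 ± 12.3 CPM. Phgdh had nearly equal means of 200.1 ± 5.33 and 202 ± 72.5 CPM, but Cre+ replicate 2 stood at 118 CPM, apart from the other Cre+ libraries at 239 and 248 CPM. Psph, the phosphatase that completes serine synthesis, was at 10.6 ± 5.61 and 11.5 ± 2.49 CPM. Its log2 fold change of 0.12 became 1.71 with the length correction, over deposited lengths of 530 to 2166 bases. Pycr1, of proline synthesis, was low at 1.29 ± 0.976 and 2.67 ± 1.80 CPM. Of the 8 synthesis enzymes, 4 had a positive and 4 a negative log2 fold change.

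Amino acid transport genes had lower means in Cre+ libraries without parting from the Cre- libraries. Slc7a5, the light chain of the large neutral amino acid carrier, was at 210 ± 47.7 and 165 ± 14.8 CPM (adjusted p = 0.638). Slc3a2, the heavy chain that pairs with it, was at 93.2 ± 16.2 and 74.2 ± 5.70 CPM (adjusted p = 0.696). The log2 fold change of Slc3a2, -0.33, became -1.01 with the length correction, because its deposited mean length ran from 825 to 1699 bases. Over the 15 tested members of the ATF4 arm, 9 were negative on the log2 scale, and their median was -0.17.

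**Figure D3:**
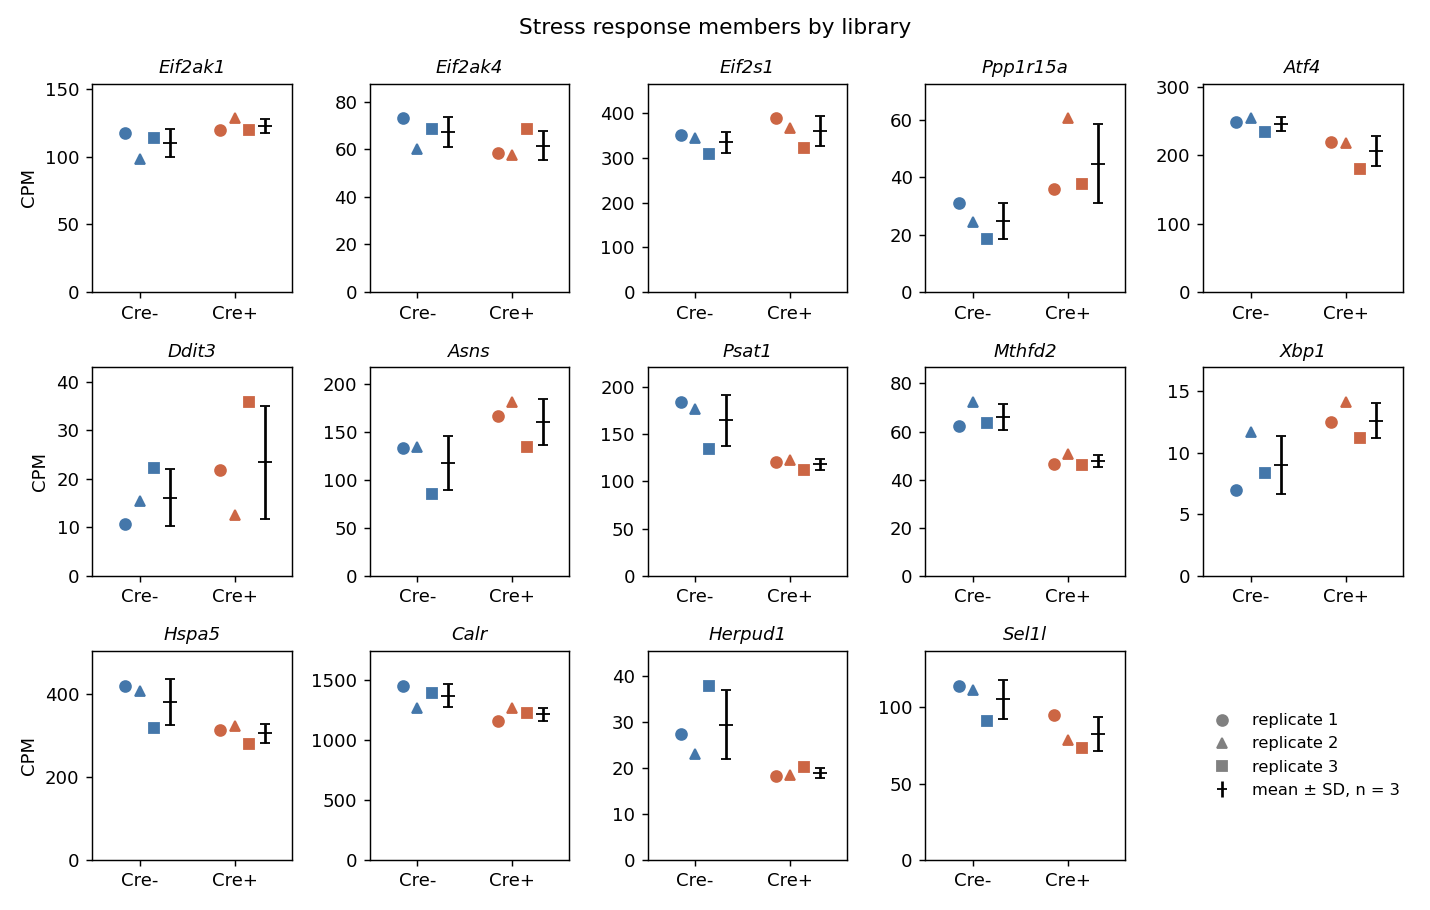
CPM of the 14 members described library by library, with Cre- libraries in blue, Cre+ libraries in orange, marker shapes for replicates 1 to 3, and black bars for the mean and SD of 3 libraries, on axes that start at 0. Atf4, Psat1, Mthfd2 and Herpud1 lie lower in every Cre+ library, Ppp1r15a, Asns and Eif2ak1 higher, and the other genes overlap.

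In the ER arm, 11 of 12 genes were negative on the log2 scale, where 50.8% of all tested genes were, and none was called. The median was -0.16. The count fell to 9 of 12 without Cre+ replicate 1, where Atf6 and Edem1 also turned positive. The sizes were small: the largest negative value was -0.64, for Herpud1, and 5 of the 12 intervals lay within 1.5-fold. The genes share the same 6 libraries, so their directions are not independent of each other.

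The sensors overlapped between groups. Atf6 was at 52.3 ± 12.5 and 51.3 ± 11.4 CPM, and Ern1, the kinase and RNase IRE1, at 52.9 ± 13.7 and 40.3 ± 13.1 CPM. Xbp1, the factor activated when IRE1 splices its RNA, had 6.99, 11.7 and 8.38 CPM in Cre- and 12.5, 14.1 and 11.2 CPM in Cre+ libraries. It was the 1 ER member with a positive log2 fold change (0.48, SE 0.43, adjusted p = 0.928). Cre+ replicate 3 lay below Cre- replicate 2, so the groups overlapped. The tables count reads per gene and do not separate the spliced from the unspliced form.

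All 6 chaperone genes had a negative log2 fold change, and the intervals of 5 lay within 2-fold, Dnajb9 being the exception. Hspa5, which encodes BiP, the chaperone that holds the sensors inactive, had 419, 406 and 317 CPM in the Cre- replicates and 312, 322 and 280 CPM in the Cre+ replicates. Cre+ replicate 2 lay above Cre- replicate 3, so the groups overlapped. The mean was 1.25-fold lower, with an interval of 1.04 to 1.51 (adjusted p = 0.487, edgeR). Calr had 1447, 1262 and 1389 CPM in Cre- and 1155, 1264 and 1220 CPM in Cre+ libraries, overlapping through Cre- replicate 2 and Cre+ replicate 2. Its mean was 1.13-fold lower, with an interval of 1.00 to 1.26.

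Pdia4, a disulfide isomerase, was parted between groups at 360 ± 14.6 and 326 ± 10.2 CPM, a 1.11-fold difference with an interval of 0.973 to 1.26. Hsp90b1 was 1.11-fold lower in the mean (1013 ± 88.0 and 916 ± 43.1 CPM) with overlapping groups. Dnajc3, a co-chaperone that also inhibits eIF2 kinases, was at 59.9 ± 10.4 and 55.6 ± 6.63 CPM. Dnajb9, an IRE1 and XBP1 target, was at 10.7 ± 0.187 CPM in Cre- libraries and at 3.41, 11.4 and 7.41 CPM in Cre+ libraries, where the spread between replicates was wide.

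The degradation genes included Herpud1, the most negative value of the arm. Herpud1, which helps to export misfolded protein for degradation, had 27.3, 23.0 and 37.7 CPM in Cre- replicates 1, 2 and 3 against 18.2, 18.3 and 20.2 CPM in the Cre+ replicates. No Cre+ library reached a Cre- library. The 1.55-fold lower mean had an interval of 0.992 to 2.43 (adjusted p = 0.620), and the log2 fold change of -0.64 became -0.28 with the length correction. Sel1l, of the same export complex, had 114, 112 and 90.8 against 95.0, 78.9 and 73.3 CPM. Cre+ replicate 1 exceeded Cre- replicate 3, and the mean was 1.28-fold lower with an interval of 1.00 to 1.64 (adjusted p = 0.604). Its log2 fold change of -0.36 became -0.71 with the length correction. Edem1, a lectin of the same pathway, overlapped at 33.9 ± 6.60 and 30.7 ± 12.2 CPM.

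Across the 3 arms, groups did not overlap for 3 members that were higher in Cre+ libraries (Eif2ak1, Ppp1r15a and Asns), or 9.09% of the tested members beside 7.53% of all tested genes. They did not overlap for 5 that were lower (Atf4, Psat1, Mthfd2, Pdia4 and Herpud1), or 15.2% beside 7.66%.

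A further 96 genes of these pathways gave the wider view. Of these, 88 were tested, 0 were called in either direction by edgeR and 2 by DESeq2, and 44 were positive and 44 negative on the log2 scale around a median of 0.00. At an unadjusted p under 0.05, 6 were higher, or 6.82% beside 4.05% of all tested genes, and 5 lower, or 5.68% beside 4.19%. The 2 called by DESeq2 were Sesn2, higher, and Eif4ebp1, lower, beside 2.28% and 2.19% of the genes to which it gave an adjusted p. List medians ran from -0.04 for other ATF4 targets to 0.09 for genes of mitochondrial protein stress. The median of the other ER arm genes was 0.08, with 18 of 30 positive, beside 1 of 12 among the ER members.

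Sesn2, a stress-induced inhibitor of growth signalling that is a target of both ATF4 and p53, stood nearest to a call. It had 11.7, 11.5 and 10.2 CPM in Cre- replicates 1, 2 and 3 against 36.5, 37.2 and 33.0 CPM in the Cre+ replicates. The groups were far apart and each was tight. The 3.20-fold higher mean had an interval of 2.11 to 4.84, a log2 fold change of 1.68 (SE 0.27) and an adjusted p of 0.0647 (edgeR, with 8.18e-09 by DESeq2 and up to 0.303 in other settings). It was called by edgeR without the filter on low counts (adjusted p = 0.0350) and when genes averaging under 1000 counts were left out (0.0191).

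Eif4ebp1, a translation repressor and ATF4 target, lay the other way, at 46.8, 69.0 and 61.7 against 40.9, 37.6 and 34.2 CPM. All its Cre+ libraries were below the Cre- libraries, 1.58-fold in the mean with an interval of 1.14 to 2.18 (adjusted p = 0.368, edgeR, and 0.0311 by DESeq2). Ddit4, an inhibitor of growth signalling named here after its values were seen, had 146, 0 and 0 reads in Cre- and 1596, 98 and 542 reads in Cre+ libraries (log2 fold change 3.62, adjusted p = 0.834), so the groups overlapped. With all Cre- reads in 1 library, that value ran from 2.52 to 12.4 over the alternatives. Gdf15 and Fgf21, both secreted stress signals, had 0 counts in all 6 libraries. Of the 12 aminoacyl-tRNA synthetase genes, which charge tRNAs and are grouped here after their values were seen, 8 had a negative log2 fold change (66.7% beside 50.8% of all tested genes), and 4 (Aars1, Iars1, Tars1 and Yars1) lay lower in every Cre+ library, or 33.3% beside 7.66%. None of them was called, and the shares of a group formed in this way are not a test. Tars1 turned from -0.19 to 0.10 with the length correction. In all, 4 of the 12 were positive both with and without it, so another gene changed sign the other way.

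In the eIF2 list, Dele1, which relays mitochondrial stress to HRI, had 52.1, 39.6 and 64.3 CPM in Cre- and 70.9, 79.4 and 71.1 CPM in Cre+ libraries. Its groups did not overlap, at 1.42-fold with an interval of 1.04 to 1.94 (adjusted p = 0.534). Impact, an inhibitor of GCN2 activation, overlapped at 20.4 ± 8.97 and 30.2 ± 6.27 CPM (adjusted p = 0.837). PKR (Eif2ak2), the kinase activated by double-stranded RNA, had a log2 fold change of -0.01 and a level of 37.1 ± 8.41 TPM in Cre- libraries.

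In the ER list, Ufm1, a ubiquitin-like modifier, was at 24.4 ± 6.34 and 36.6 ± 2.40 CPM with separate groups (adjusted p = 0.605), and its log2 fold change of 0.59 became 2.10 with the length correction, over deposited lengths of 841 to 4799 bases. Dnajb11, a BiP co-chaperone, was at 56.8 ± 5.24 and 73.7 ± 9.48 CPM, also with separate groups (adjusted p = 0.620). Of the mitochondrial genes, the chaperones Trap1 (179 ± 8.54 and 202 ± 20.1 CPM) and Hspe1 (149.8 ± 41.4 and 181 ± 27.5 CPM) overlapped between groups.

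Among cytosolic heat shock genes, Hsf1, the factor that drives them, was lower in every Cre+ library, at 61.5, 63.5 and 49.8 against 44.8, 38.2 and 27.5 CPM (1.58-fold, interval 1.11 to 2.26, adjusted p = 0.436). Hspa1b, an inducible HSP70, had 98.8, 92.9 and 162 CPM in Cre- and 134, 325 and 230.1 CPM in Cre+ libraries, so the groups overlapped (adjusted p = 0.384). Its near-identical copy Hspa1a makes the count of either uncertain.

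**Figure D4:**
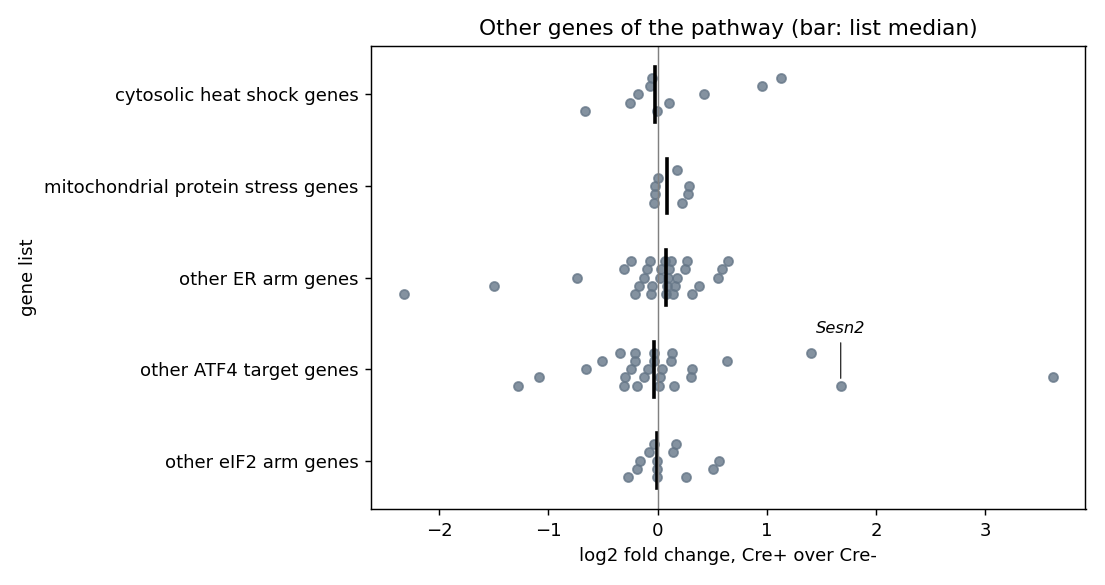
Log2 fold change (x axis, Cre+ over Cre-) of the 88 tested other genes of the pathways, with one point per gene and one line per list, and black bars at the list medians. The medians lie between -0.04 and 0.09, Sesn2 stands at 1.68, and the farthest point to the right is Ddit4.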

How the data were processed

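Qiagen's RNeasy Micro kit gave the RNA and a stranded total RNA kit from Takara (SMARTer, Pico) the libraries, per the labels. The authors used STAR 2.5.3a and RSEM 1.3.0 on GRCm39, per the submitters' processing notes. For the annotation and the strand setting, the choice is not given in the sources used here. The deposited tables give an expected count per gene, TPM, FPKM and mean transcript lengths, which depend on RSEM's isoform shares, per the file headers. FPKM was not used. The authors' TPM served only to compare levels between genes. Symbols were matched by Ensembl identifier to GENCODE names for 52081 entries.

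Expected counts, 2.64% of which were not whole, were rounded. Genes were kept by filterByExpr (13117) and scaled by TMM. In R 4.3.3, edgeR 4.0.16 (glmQLFit, glmQLFTest) compared Cre+ with Cre-. P-values were adjusted over the 13117 genes by Benjamini-Hochberg, and 0.05 was the threshold. The standard error is the log2 fold change divided by the root of F, and 95% intervals use the t distribution with the fit's degrees of freedom. Folds are ratios of mean CPM. The length correction adds the deposited effective lengths as offsets. The fit was also run on simulated counts with 200 changed genes, the outcome of which is not given here. Alternatives were DESeq2 1.42.0, limma-voom (limma 3.58.1), other scaling and filters, a replicate block, and leaving out each library.

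The members and lists were chosen with earlier results of these data known. Described library by library were the 4 members of each arm with the smallest p, plus Atf4, Ddit3, Eif2ak1, Xbp1 and Hspa5. From each list of other genes the 2 with the smallest p were described, and any further gene was chosen after its values were seen. The labels do not say whether samples are separate embryos, so p-values measure the spread between these samples. Replicate numbers are not stated to mark litters.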

Additional observations from a re-analysis of the deposited data

How the results depend on the processing

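No member was called by edgeR or limma-voom under any alternative run, and DESeq2 called 2 (Ppp1r15a and Psat1). Of the other pathway genes, DESeq2 called 2 (Sesn2 and Eif4ebp1), and edgeR called 1 (Sesn2) both without the filter and with genes averaging under 1000 counts left out. All tested genes gave 16 calls, against 619 by DESeq2, 84 with genes averaging under 1000 counts left out, 39 without the filter, 6 with length offsets and 7 to 16 when 1 library was left out (9 without Cre+ replicate 1 and 7 without Cre+ replicate 2). The cause of these differences was not tested. The ER arm median was -0.16, and -0.23 by limma-voom. When 1 library was left out, the eIF2 arm median ran from -0.018 (without Cre+ replicate 1) to 0.17 (without Cre+ replicate 3), the ATF4 arm median from -0.26 (without Cre- replicate 3) to -0.13, and the ER arm median from -0.22 to -0.14. The log2 fold changes of the 24 genes chosen by p or by name for a library-by-library account kept their sign in each alternative that tested them. Of the tested members, 9 changed sign in at least 1 alternative: Eif2ak3, Ppp1r15b, Cebpg, Phgdh, Psph, Aldh18a1, Atf6, Dnajc3 and Edem1. The order of TPM did not change when TPM was rescaled over the tested genes. Such rescaling multiplies all genes of a library by the same factor, so it could not reorder them within that library. It therefore does not show how far the order depends on the deposited lengths.

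With a replicate block in the edgeR fit, 56 genes were called, 38 higher and 18 lower, and 0 members and 0 other pathway genes. Same-numbered libraries had correlations of their deviations from the group means of 0.0260 to 0.0725, against -0.0545 to -0.00473 for other pairs. Every library thus correlated best with its own number. Deviations from a mean of 3 libraries sum to 0, so positive values for some pairs go with negative values for others. The contrast is therefore partly built in, and it is a weak hint from the data and not from the design. Atf3 and Chac1 had no reads, and Trib3, Slc7a11, Vldlr, Atf5 and Pycr1 so few that no close bound can be given for them.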
